A study of Arabidopsis thaliana with 5 samples.

Results

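The LCR genes (low-molecular-weight cysteine-rich) of Arabidopsis thaliana encode small secreted peptides. They were taken as all genes whose symbol in the platform annotation starts with LCR and a digit and whose probe set names that gene alone. This gave 8 genes, LCR24, LCR59, LCR66, LCR67, LCR68, LCR69, LCR72 and LCR80, of 13356 genes with such a probe set, and each of the 8 had 1 probe set. The RefSeq gene table lists 81 genes with an LCR symbol, and the other 73 were not analysed here.

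Expression was measured on Affymetrix ATH1 arrays in cells of primary root tips, dissociated to protoplasts and sorted for a yellow fluorescent protein. In the BL group (2 arrays, replicates 1 and 2) seedlings aged 6 days had been kept for 2 h in liquid medium that held 10 nM of brassinolide (BL), an active brassinosteroid hormone. In the control group (3 arrays, replicates 1 to 3) seedlings of the same age had spent the same time in medium with ethanol as a mock. Seedlings of both groups carried the reporter pBRL3:nlsYFP, a nuclear fluorescent protein under the promoter of the brassinosteroid receptor gene BRL3. The sort was thus for cells in which that promoter was active, and its purity was not analysed here. Values are log2 expression values made by the authors with RMA, and the scale is set separately by each probe set, so levels are compared between arrays and not between genes.

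LCR peptides are made with a signal peptide and hold several cysteines that form disulphide bridges, which gives a compact and stable fold. Some are plant defensins, peptides known for inhibiting fungal growth, and others resemble pollen coat peptides of crucifers. Many LCR genes are known for expression in flowers, pollen or seeds, and some defensin-type members are transcribed in vegetative organs. Of the 8 genes, RefSeq gives a plant defensin name for 5: PDF2.4 for LCR66, PDF1.1 for LCR67, PDF2.3 for LCR68, PDF2.2 for LCR69 and PDF2.6 for LCR72. LCR24, LCR59 and LCR80 have no such name there.

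The 8 genes fell into 3 patterns over the arrays. LCR68 and LCR69 had values in the upper quartile on all 5 arrays, and both BL arrays lay below all 3 controls. LCR67 was in the upper quartile on 1 array, control replicate 3, and in the lower quartile on the other 4. LCR24, LCR59, LCR66, LCR72 and LCR80 were in the lower quartile on all 5 arrays and differed little between them. No detection calls were analysed, so how far the values in the lower quartile lie over background is unknown.

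**Figure D1:**
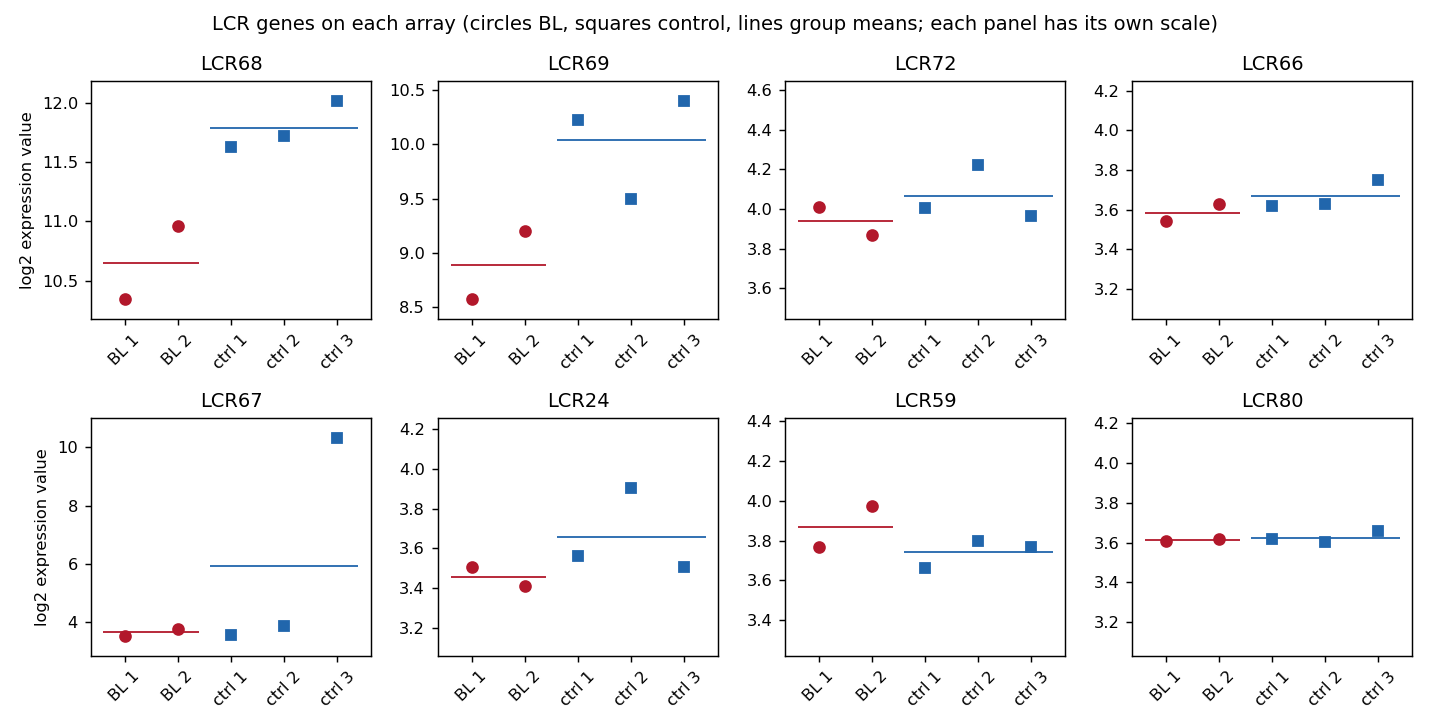
Log2 expression value (y axis, its own scale in each panel) of the 8 LCR genes on the 2 BL arrays (circles) and the 3 control arrays (squares, ctrl), with lines at the group means. LCR68 and LCR69 lie below all controls on both BL arrays, LCR67 reaches 10.33 on control replicate 3 alone, and the other 5 genes stay between 3.41 and 4.22.

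The arrays did not form even groups, which bears on every value below. Spike-in probe sets for the 3' ends of added bacterial poly-A transcripts had medians of 4.53 and 4.76 on the BL arrays, 4.72 on control replicate 1, and 8.31 and 7.64 on control replicates 2 and 3. The Pearson correlation of control replicate 1, taken across probe sets and not across replicates, was 0.969 and 0.974 to the BL arrays and 0.911 and 0.955 to the other controls. No label names a batch. Hybridization spike-in probe sets had medians of 8.02 and 7.68 on the BL arrays, against 8.49, 10.48 and 9.41 in controls. On that measure both BL arrays lay below every control. By these values control replicate 1 is the control most like the BL arrays, but it is not matched to them on every measure. The difference of the BL mean from that array alone is therefore given beside the main differences. Of the root markers looked up, BRL3 itself had no probe set naming it alone, and 3 of 8 stem cell niche genes (AGL42, BBM and JKD) and 2 of 8 vascular genes (OPS and PHV) had one. AGL42 and JKD were in the lower quartile on 1 array each and the other 3 genes on none. Of 4 root hair genes 2 were measured, and both stood apart on control replicate 2: EXPA7 was at 4.57 and 4.96 with BL, against 4.20, 6.52 and 4.38 in controls, and EXPA18 at 4.87 and 5.54 with BL, against 4.35, 6.17 and 4.66 in controls. The 3 root cap genes and the cortex gene CO2 were not matched by symbol. The number of arrays limits the precision, and since no label ties replicates to separate batches of seedlings, the spread behind each p may be technical.

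The comparison of BL with control addresses the response to the hormone in cells sorted by the BRL3 reporter. After Benjamini-Hochberg adjustment of the limma p over 22746 probe sets, 0 had an adjusted p under 0.05, a background of 0%, so none of the 8 genes was called. Before adjustment 1616 probe sets, or 7.1%, had a p under 0.05, and so did 2 of the 8 LCR genes, LCR68 and LCR69. In the lower direction, that of both genes, the share was 3.06%. The BL values lay wholly on one side of the control values for 4800 probe sets (21.1%) and for the same 2 LCR genes. With both BL values below all controls, as in these 2 genes, the background was 9.75%. The BL mean was lower for 7 of the 8 genes and for 54.7% of all probe sets, and higher for 1 gene, LCR59, and for 45.3% of all probe sets. The median log2 difference of the 8 genes was -0.16, or -0.05 against control replicate 1 alone, and over all probe sets it was -0.02 and 0.0029. Without control replicate 2 the median of the 8 genes was -0.087.

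LCR68 encodes plant defensin 2.3, a peptide known to block potassium channels. Its log2 value was 10.34 and 10.96 with BL, against 11.63, 11.72 and 12.02 in controls. The groups did not overlap, and the lowest control stood 0.67 above the higher BL array. The BL mean was 10.65 ± 0.439 (SD, n = 2) and the control mean 11.79 ± 0.204 (SD, n = 3). The log2 difference was -1.14 ± 0.246 (SE, 95% interval -1.81 to -0.47), so that the BL mean was 2.20-fold lower. It had an unadjusted limma p of 0.00864 and did not pass over all probe sets (limma adjusted p = 0.568). The exact two-sided permutation test gave p = 0.1, the smallest that the 10 splits of the arrays allow. Against control replicate 1 alone the difference was -0.98.

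LCR69 encodes plant defensin 2.2. Its log2 value was 8.57 and 9.20 with BL, against 10.22, 9.50 and 10.40 in controls. Again both BL arrays lay below every control, but the gap was smaller, 0.30 between BL replicate 2 and control replicate 2. The BL mean was 8.89 ± 0.445 (SD, n = 2) and the control mean 10.04 ± 0.474 (SD, n = 3). The log2 difference was -1.15 ± 0.366 (SE, 95% interval -2.15 to -0.16), or 2.22-fold lower with BL. It did not pass over all probe sets (unadjusted limma p = 0.0321, limma adjusted p = 0.655), and the exact two-sided permutation test gave p = 0.2. Against control replicate 1 alone the difference was -1.33.

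In both genes BL replicate 1 was the lowest of the 5 arrays and control replicate 3 the highest. A difference as low as that of LCR68 was found for 520 probe sets, or 2.29% of all, and one as low as that of LCR69 for 503, or 2.21%. The difference of LCR68 ran from -1.68, for BL replicate 1 minus control replicate 3, to -0.67, for BL replicate 2 minus control replicate 1. For LCR69 the 6 such pairs ran from -1.83 to -0.30. Every pair of a BL and a control array thus had the lower value with BL for these 2 genes. The count of 2 LCR genes at an unadjusted p under 0.05 was 1 when control replicate 1 or control replicate 3 was left out. It was also 1 with a block for the replicate numbers, a floor of 4 or an ordinary linear model. The count stayed at 2 without control replicate 2, with either other normalization, and among probe sets above the median level. It also stayed at 2 with a trended and robust variance and with array weights. It was 0 with a term for controls 2 and 3. The share over all probe sets was not computed for these fits or for the other alternatives below.

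Of the 2 vascular markers measured, PHV alone was lower on both BL arrays than on every control, as 9.75% of all probe sets were. PHV, a vascular patterning transcription factor, was at 7.73 and 7.47 with BL, against 8.16, 8.42 and 8.82 in controls. Its lowest array was BL replicate 2, and that of LCR68 and LCR69 was BL replicate 1. OPS, a phloem regulator, was at 4.69 on both BL arrays, against 4.61, 4.69 and 4.96 in controls. The summed linear level of these 2 measured vascular genes of 8 was 203 to 238.1 with BL and 311.3 to 484.6 in controls, and it is mostly that of PHV, since a sum weights each probe set by its own scale. For the 3 stem cell niche genes measured it was 116.2 to 186.4 with BL and 89.3 to 119.9 in controls. BL replicate 1 alone lay above the controls, and BL replicate 2 lay within their range. This sum is mostly that of BBM, which on BL replicate 2 was also within the range of the controls. JKD likewise exceeded all controls on BL replicate 1 alone, and AGL42 on neither BL array. The part of such shifts in the LCR68 and LCR69 values was not tested. Fewer cells of a type and less RNA per cell cannot be told apart in these bulk samples.

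**Figure D2:**
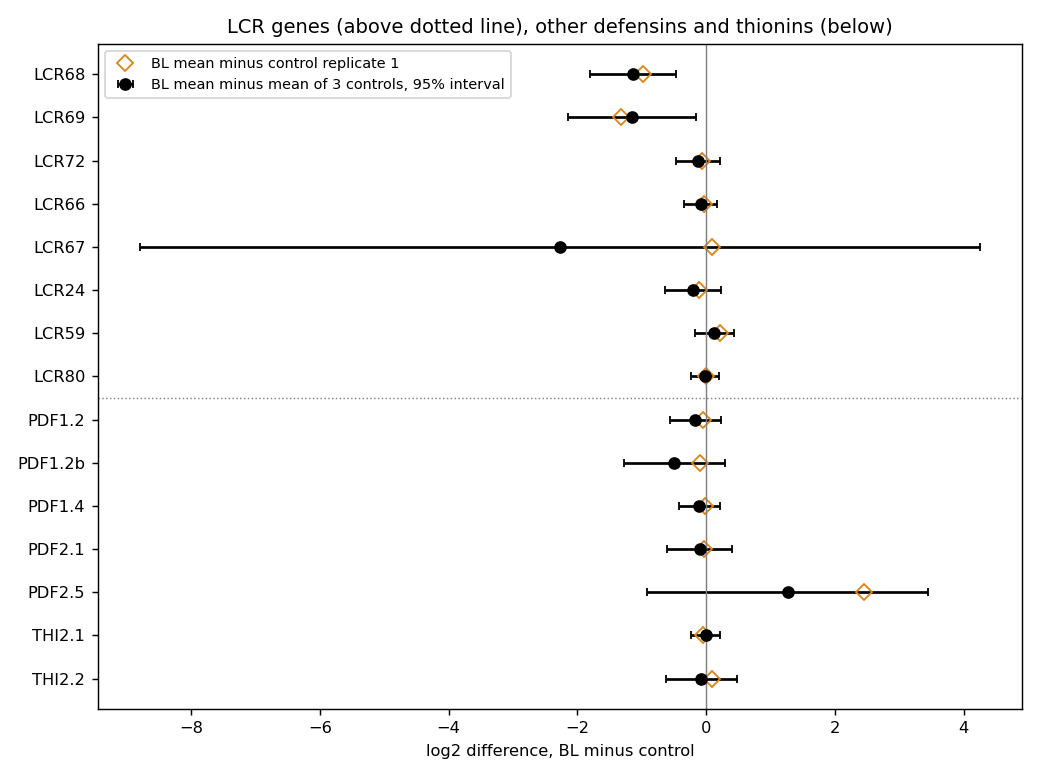
Log2 difference of the BL mean minus the mean of the 3 controls (filled circles, with the 95% limma interval) and minus control replicate 1 alone (open diamonds) for the 8 LCR genes and, below the dotted line, 7 other defensin and thionin genes. The intervals of LCR68 (-1.81 to -0.47) and LCR69 (-2.15 to -0.16) exclude 0 before adjustment, and that of LCR67 is the widest.

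LCR68 and LCR69 lie close together on their chromosome. In the RefSeq order of protein-coding genes LCR69 is followed by AT2G02103, PDF2.1 (also named LCR70), LCR68 and LCR72. The other measured genes of this row stayed in the lower quartile on all 5 arrays. PDF2.1 was at 3.51 and 3.58 with BL, against 3.58, 3.42 and 3.94 in controls, and its groups overlapped. LCR72, whose defensin PDF2.6 is known for binding cadmium, was at 4.01 and 3.87 with BL, against 4.01, 4.22 and 3.96 in controls. Its difference was -0.13 ± 0.124 (SE, 95% interval -0.47 to 0.21, limma adjusted p = 0.823), and it was -0.07 against control replicate 1 alone.

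The profiles of LCR68 and LCR69 were compared with those of all other genes by the root mean square difference of log2 values over the 5 arrays, after each gene's own mean was subtracted. The nearest genes to LCR68 were AT5G65660 at 0.145 and LSH9, a member of the LIGHT-DEPENDENT SHORT HYPOCOTYLS family, at 0.151. Nearest to LCR69 were ATL8, of the RING-type ubiquitin ligase family, at 0.133 and AT5G43150 at 0.142. The order of the 2 neighbours turned for both genes without control replicate 1, where the distance was 0.0684 for LSH9 and 0.144 for AT5G65660, and 0.03 for AT5G43150 and 0.116 for ATL8. LCR69 itself stood at 0.264 from LCR68, rank 58 of 13355 genes. Within 0.25 there were 44 genes for LCR68 and 29 for LCR69. The 2 LCR genes differed in the order of their controls: control replicate 2 was the lowest control for LCR69 and the middle one for LCR68.

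**Figure D3:**
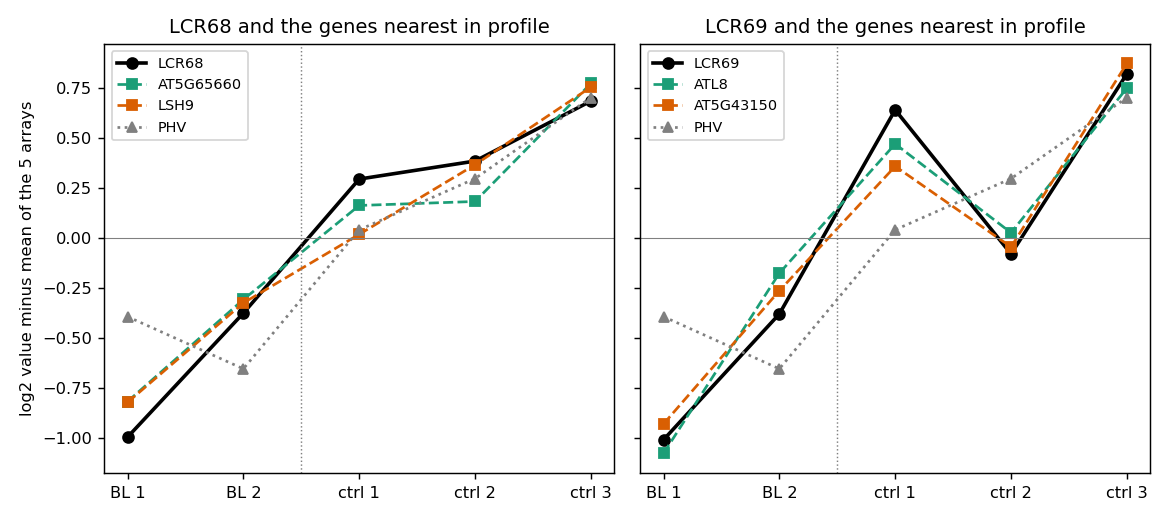
Log2 value minus the gene's mean over the 5 arrays for LCR68 (left) and LCR69 (right), each with the 2 genes nearest to it in profile and with the vascular marker PHV. Dotted vertical lines part the BL arrays from the controls (ctrl); the lines between points only guide the eye, and all genes shown lie below 0 on both BL arrays.

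LCR67 encodes plant defensin 1.1, an antifungal peptide known from seeds. Its log2 value was 3.53 and 3.79 with BL, against 3.57, 3.89 and 10.33 in controls. Control replicate 3 stood 6.44 above the next highest array, and the other 4 arrays had an SD of 0.171. No other probe set had a single array so far above the rest, and the second such gap was 5.90. The difference of BL from control was -2.27 ± 2.4 (SE, 95% interval -8.80 to 4.26) and did not pass (limma adjusted p = 0.831). Without control replicate 3 it was -0.07, and against control replicate 1 alone it was 0.09, so that array alone sets the value.

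Other genes stood out on control replicate 3 in the same way. That array was at least 3 above all others for 20 probe sets, of which 10 name 1 gene, against 43 probe sets for control replicate 2 and 0 for each of the other arrays. The gene nearest in profile to LCR67 was M17, of the late embryogenesis abundant type, with a distance of 0.589. M17 was at 3.36 and 3.33 with BL, against 3.36, 3.31 and 8.55 in controls. Next came AT1G04560 at a distance of 0.974, with 4.70 and 4.92 on the BL arrays and 5.13, 4.95 and 9.16 on the controls. Both genes were picked for nearness to LCR67, so their height on control replicate 3 and narrow range elsewhere follow from that choice. Without control replicate 3 the distances were 0.168 for M17 and 0.194 for AT1G04560. These are of the size of the SD of LCR67 on the other 4 arrays, 0.171.

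M17 and the seed role of LCR67 led to a list of seed maturation genes, chosen after these values were seen and therefore not tested. Of its 28 genes 4 had a probe set naming them alone. PAP85, a vicilin-type seed storage protein, was at 4.02 and 3.90 with BL, against 3.86, 4.11 and 7.70 in controls. M10, like M17 a late embryogenesis gene, was at 4.43 and 4.20 with BL, against 4.43, 4.37 and 6.60 in controls. OLEO3, an oleosin of seed oil bodies, did not follow, with 5.10 on both BL arrays and 5.10, 6.05 and 5.10 in controls. The summed linear level of the 4 genes was 77.8 to 82.4 with BL and 80.7 to 714.6 in controls, the highest being control replicate 3. M17, which led to the list, is 1 of these 4 genes, so its part in that sum follows from the choice. M17 and PAP85 were in the lower quartile on the other 4 arrays. The part of seed transcripts in the LCR67 value was not tested. LCR68 and LCR69 were also highest on that array, and without it their differences were -1.02 and -0.97, against -1.14 and -1.15 with it.

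**Figure D4:**
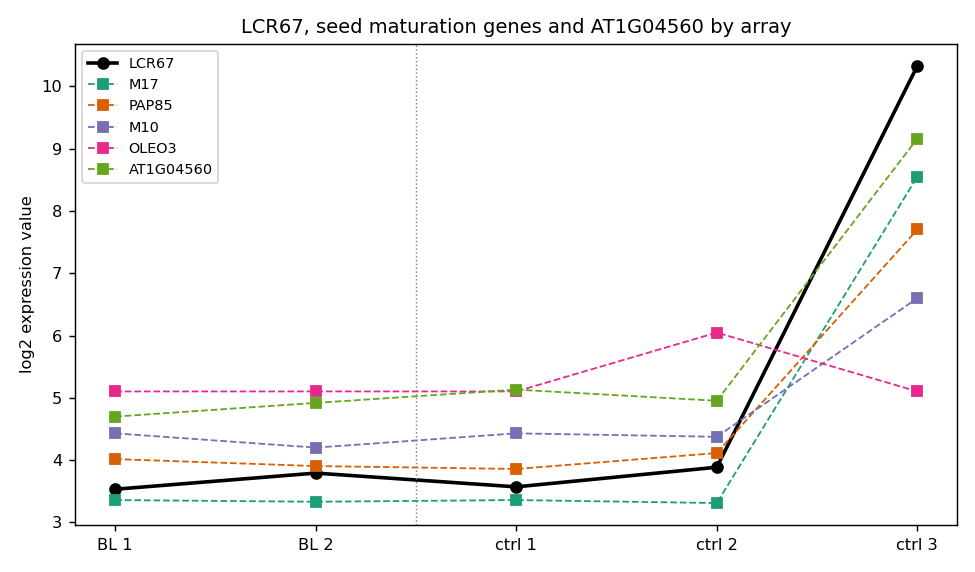
Log2 expression value of LCR67, of 4 seed maturation genes (M17, PAP85, M10 and OLEO3) and of AT1G04560 on the 2 BL and 3 control arrays (ctrl). LCR67, M17, PAP85, M10 and AT1G04560 stand at least 2.17 above their other values on control replicate 3, and OLEO3 is highest on control replicate 2; lines join the values of a gene and are no time course.

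The other LCR genes gave small differences from values near the bottom of the scale. LCR66, or plant defensin 2.4, was at 3.54 and 3.63 with BL, against 3.62, 3.63 and 3.75 in controls. LCR24 was at 3.51 and 3.41 with BL, against 3.56, 3.90 and 3.51 in controls. LCR59 was at 3.76 and 3.98 with BL, against 3.66, 3.80 and 3.76 in controls. For all 3 genes the groups overlapped or met at an equal value.

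LCR80 was at 3.61 and 3.62 with BL, against 3.62, 3.60 and 3.66 in controls, a range of 0.0551 over the 5 arrays. The differences of these 4 genes were -0.08 for LCR66, -0.20 for LCR24, 0.13 for LCR59 and -0.012 for LCR80. Their 95% intervals reached from -0.63 at the lowest, for LCR24, to 0.43 at the highest, for LCR59. The limma adjusted p ran from 0.802 to 0.974. Over the 5 arrays LCR24, LCR59, LCR66, LCR72 and LCR80 had SDs of 0.0214 to 0.191, all under the median SD of a probe set, 0.254, and the SDs of LCR67, LCR68 and LCR69 were above it.

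**Figure D5:**
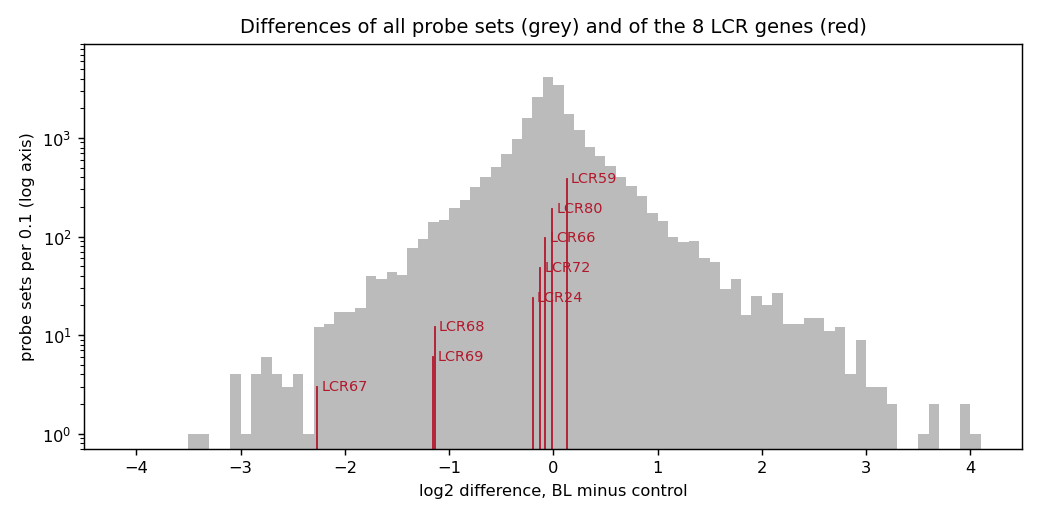
Number of probe sets (log axis, bins of 0.1) by log2 difference of BL minus control for all 22746 probe sets (grey), with red lines at the 8 LCR genes; the heights of the red lines only separate the labels. LCR67 (-2.27), LCR69 (-1.15) and LCR68 (-1.14) lie in the lower tail and the other 5 between -0.20 and 0.13.

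Other small secreted cysteine-rich peptide genes of defensin and thionin type, 7 of them with a single-gene probe set, stand beside the LCR genes. None passed over all probe sets, and 0 had an unadjusted p under 0.05 (limma, adjusted p 0.775 to 0.989). The BL mean was higher for 1 and lower for 6, with a median log2 difference of -0.10, or -0.04 against control replicate 1 alone. PDF2.5, PDF1.2, PDF1.4 and PDF2.1 also carry an LCR number (74, 77, 78 and 70) among their RefSeq synonyms. With these 4 added, the 12 LCR genes had 2 with a higher BL mean and the same 2 at an unadjusted p under 0.05.

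PDF2.5, a defensin known for cadmium tolerance, had the widest difference in this group. It was at 7.94 and 6.48 with BL, against 4.75, 6.48 and 6.60 in controls, so the groups overlapped. Its difference was 1.27 ± 0.801 (SE, limma adjusted p = 0.783) and 2.46 against control replicate 1, its lowest array. Without BL replicate 1, its highest array, the difference was 0.54, and without control replicate 1 it was 0.67. BL replicate 2 and control replicate 2 shared the same value, as median polish can give.

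PDF1.2, a marker of jasmonate and ethylene defence responses, was at 4.28 and 4.46 with BL, against 4.42, 4.74 and 4.46 in controls. Its near-identical relative PDF1.2b was at 4.61 and 4.68 with BL, against 4.74, 5.06 and 5.61 in controls. Both BL arrays lay below the controls for PDF1.2b alone of the 7, by 0.065, against the background of 9.75%, and its difference was -0.50, or -0.10 against control replicate 1 alone. Its probe set is of a type that may also bind related transcripts, so the value is uncertain. PDF1.4 differed by -0.11, the jasmonate-inducible thionin gene THI2.1 by -0.0070 and THI2.2 by -0.07.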

How the data were processed

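The authors deposited log2 expression values from RMA, which corrects background, quantile normalizes arrays and summarises probes by median polish. RMA, affy 1.70.0, limma 3.48.3 and R 4.1.1 are named in the submitters' processing notes. The base of the logarithm is not stated there, and 2 was assumed, as RMA uses it. Median polish can give arrays the same value. Of 22810 probe sets, 64 control probe sets were set aside. Names came from the platform annotation, in which 13513 probe sets name 1 gene, updated through a RefSeq table of assembly TAIR10.1. All 8 LCR genes matched. RefSeq start positions were used only to order the genes around LCR68 and LCR69, and no sequences were used here.

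BL was compared with control by limma 3.58.1 in R 4.3.3 (lmFit, eBayes, treatment only, 5 arrays) with Benjamini-Hochberg adjustment over 22746 probe sets. The model had 3 residual and 1.22 prior degrees of freedom. Single genes were also tested by exact permutation. Quartiles are those of all probe sets on an array. All LCR genes were named. The 7 companion genes were those with PDF, SCRL, THI1, THI2 or GASA symbols. PDF1A and PDF1B were left out after their names were looked up, since they are peptide deformylases. For each LCR gene with an SD above the median, the 2 genes nearest in profile were named. The members, lists and tests were chosen with earlier results of these data known.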

Additional observations from a re-analysis of the deposited data

How the results depend on the processing

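Alternatives left out each array, added a replicate block or a term for controls 2 and 3, and changed normalization, filter, floor, variance model or array weights. All of them gave 0 adjusted calls, over all probe sets and for the 7 companion genes, and the smallest adjusted p was 0.057, with array weights. LCR68 and LCR69 were lower with BL in all 14 alternatives, from -1.45 to -0.83 and from -1.47 to -0.84. No BL value overlaps the controls for either, so leaving out arrays could not turn the sign. Of 102 values for the LCR genes 97 kept their sign, and of 91 for the companion genes 82. Many of these values could not differ. The changes of variance model and the filter leave a gene's difference as in the main fit, and so does the floor for LCR68 and LCR69. The replicate block gives the differences without control replicate 3, and the term for controls 2 and 3 gives those against control replicate 1 alone. The alternatives are thus not separate checks.

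Each array's deviation from its group mean was correlated with that of the same number, at -0.060 for number 1 and 0.037 for number 2, so the numbers are not shown to pair the arrays. With the replicate block 1 LCR gene had an unadjusted p under 0.05 and 2 had a higher mean, and LCR80 turned to 0.0034 and PDF2.1 to 0.047. With the term for controls 2 and 3, 0 LCR genes had an unadjusted p under 0.05 and 2 a higher mean, LCR67 turned to 0.091 and THI2.2 to 0.086. Quantile normalization gave 2 LCR genes with a higher mean, with LCR80 at 0.015 and THI2.1 at 0.031, and cyclic loess also gave 2, with LCR80 at 0.040 and THI2.1 at 0.034. Array weights turned THI2.2 to 0.040. With a floor of 4, under which LCR24, LCR59, LCR66, LCR80 and PDF2.1 have no value, 1 LCR gene had an unadjusted p under 0.05 and 0 a higher mean. The ordinary linear model gave 1 under 0.05. The share over all probe sets was not computed. Above the median level only LCR68 and LCR69 of the LCR genes were left, with 0 higher and a median of -1.15, by construction. With LCR synonyms added, chosen after seeing the data, 2 of 12 had a higher mean. Without LCR67, also chosen so, the LCR median was -0.13.

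When single arrays were left out (a remaining BL array then takes its spread from the controls), 1 to 2 LCR genes had an unadjusted p under 0.05, 2 to 5 did not overlap between groups, and 1 to 2 had a higher mean. The median of the LCR genes ran from -0.22 to -0.087 and PDF2.5 from 0.54 to 2.00. LCR80 ran from -0.024 to 0.0034, PDF2.1 from -0.22 to 0.047, THI2.1 from -0.028 to 0.012 and THI2.2 from -0.16 to 0.099. Where fewer arrays or probe sets do not account for a shift, the cause was not tested. Each LCR gene had 1 single-gene probe set, so no other was tried. Signal over background was not analysed here.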
